A study of Mus musculus with 11 samples.

Results

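The genes described here encode the subunits of the NMDA receptor, an ion channel of excitatory synapses that is opened by glutamate. They were taken from the deposited table by symbol. All 7 members (Grin1, Grin2a, Grin2b, Grin2c, Grin2d, Grin3a and Grin3b) were found, each with 1 of the 21534 gene regions. Their contact with lamin B1, a filament protein under the nuclear envelope, had been measured by DamID-seq. In this assay the bacterial adenine methyltransferase Dam is fused to LMNB1 and marks DNA near the nuclear lamina, while untethered Dam marks DNA that is open to the free enzyme. Oligodendrocyte precursor cells were isolated from cortices of C57BL/6 mouse pups (postnatal day 7). A lentivirus brought in Dam-LMNB1 or Dam, and after 1 day the cells were grown for 72 h in T3 medium, which lets them differentiate (OL), or in PF medium, in which they proliferate (OPC).

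The groups were OL Dam-LMNB1 (3 libraries, numbered 18, 19 and 20), OL Dam (3 libraries, 12, 13 and 14), OPC Dam-LMNB1 (3 libraries, 8, 9 and 10) and OPC Dam (2 libraries, 2 and 4). No group carries a mutation, and all cells carried a Dam construct, so cells without Dam were not part of the comparison. The table holds 1 score per region for each of the 6 Dam-LMNB1 libraries, taken by the authors against the pooled Dam libraries of the same condition. A score above 0 is read as more Dam-LMNB1 than Dam methylation. The log base is not stated, so differences are given in score units. Read depth is unknown. Since the 3 scores of 1 condition use the same pooled Dam libraries, variation among Dam libraries enters neither the SDs nor the p-values. Separate cultures or animals are not named in the labels, so the p-values rest on a spread among libraries that may be technical.

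An NMDA receptor is assembled from obligatory GluN1 subunits together with GluN2 or GluN3 subunits. GluN1 and GluN3 bind glycine or D-serine and GluN2 binds glutamate, and the GluN2 type sets how long the channel stays open and how strongly magnesium blocks it. In the forebrain GluN2B prevails early and GluN2A becomes more abundant as synapses mature. NMDA receptors have also been recorded in cells of the oligodendrocyte lineage. Regions at the lamina mostly hold genes with little transcription, but a DamID score measures contact and not expression.

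Dam methylates the adenine of GATC, a motif that reads the same on both strands, so the assay reports on a stretch of DNA only through its GATC sites. RefSeq promoter windows (GRCm38.p6), which run from 250 bases before to 50 bases after the annotated start, were matched for 4 of the 7 members, Grin1, Grin2c, Grin2d and Grin3b. Among all 32851 windows, 48.0% held at least 1 GATC. The windows of Grin1 and Grin2c held 0, that of Grin2d held 1 and that of Grin3b held 2. The 250 bases before the start are shown for Grin1 (chr2:25319188-25319437, minus strand) and Grin3b (chr10:79970474-79970723, plus strand), the members whose score was called higher in OL, with each GATC in capitals.
Grin1: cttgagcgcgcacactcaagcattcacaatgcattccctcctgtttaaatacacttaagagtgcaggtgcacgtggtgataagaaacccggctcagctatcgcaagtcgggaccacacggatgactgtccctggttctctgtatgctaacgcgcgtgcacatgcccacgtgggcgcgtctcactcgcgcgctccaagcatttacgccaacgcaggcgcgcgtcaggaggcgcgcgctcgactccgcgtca
Grin3b: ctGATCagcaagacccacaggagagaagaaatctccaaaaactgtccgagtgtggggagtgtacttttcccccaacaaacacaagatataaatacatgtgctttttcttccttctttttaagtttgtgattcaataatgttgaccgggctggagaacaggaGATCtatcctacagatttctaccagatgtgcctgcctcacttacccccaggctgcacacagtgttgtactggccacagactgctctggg
The Grin1 stretch had 58.8% G or C and no GATC, and the Grin3b stretch had 46.0% G or C and a GATC at positions 3 and 162, counted from 1 at the 5′ end. The scored region of either gene is far wider than its promoter. The regions reach 10 kb upstream of the start used by these windows, and they take in exons, introns and flanks alike.

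For description, the subunit genes were split between Grin3a and Grin3b into a low and a high group. Between the means of these 2 genes lay 1.33 in OPC, the widest gap in the order. In OL it was 0.72, less than the 0.79 between Grin2a and Grin2b within the high group. Grin1, Grin2c, Grin2d and Grin3b had mean scores from −1.83 to −1.20 in OL and from −2.21 to −1.66 in OPC. Grin2a, Grin2b and Grin3a lay between −0.47 and 0.69 in OL and between −0.32 and 0.54 in OPC. At an adjusted p under 0.05 (limma, Benjamini-Hochberg over all regions), 1 of the 7 members was above 0 in OL, against 25.9% of all regions, and 5 were below 0, against 70.9%. In OPC 2 members were above 0, against 25.5% of all regions, and 5 were below 0, against 71.4%. The counts are thus close to the shares over all regions.

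**Figure D1:**
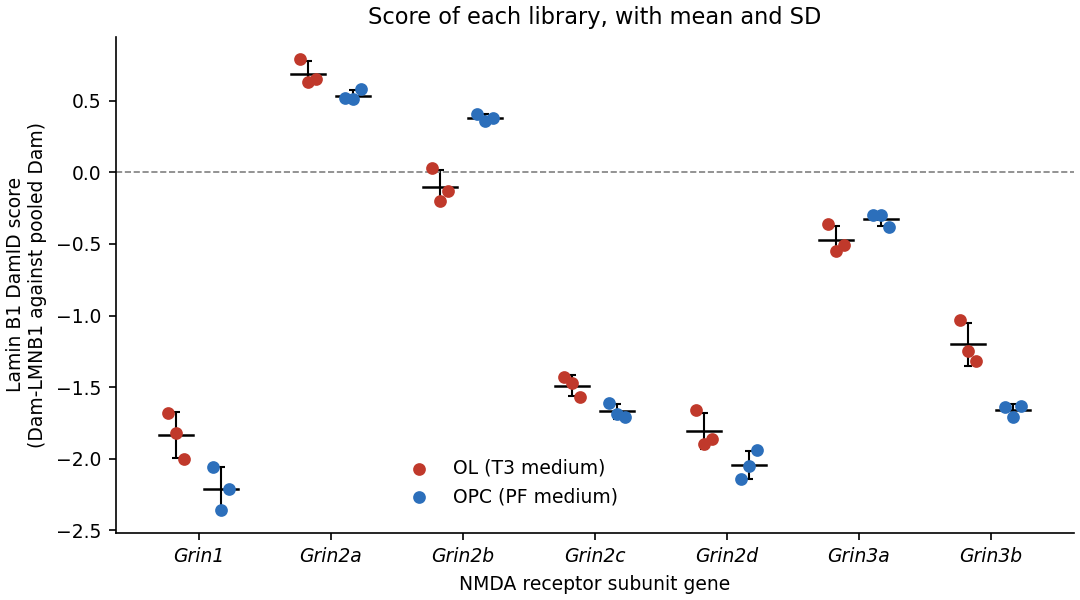
Lamin B1 DamID score (vertical axis, score units) of the 7 NMDA receptor subunit genes in each OL library (red) and each OPC library (blue), with the mean as a line and the SD as an error bar (n = 3 each). Grin2a lies above 0 in all 6 libraries, Grin2b above 0 in all OPC libraries and around 0 in OL, and the other genes below 0.

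Grin1 (chr2:25289176-25329187, mm10), which encodes the obligatory GluN1 subunit, was the lowest member in both conditions. It scored −1.68, −1.82 and −2.0 in OL libraries 18, 19 and 20, and −2.06, −2.36 and −2.21 in OPC libraries 8, 9 and 10. All OL libraries were above all OPC libraries, with the narrowest gap between OL library 20 and OPC library 8. The mean was −1.83 ± 0.16 in OL and −2.21 ± 0.15 in OPC (SD, n = 3 each), a rise of 0.38 (SE 0.11, limma adjusted p = 0.0285). That call was lost without OL library 18 (rise 0.30, adjusted p = 0.0795), OL library 19 (0.37, 0.0691), OPC library 9 (0.30, 0.0996) or OPC library 10 (0.38, 0.0675; limma). It was also lost when the libraries were scaled to an equal mean and SD (0.25, limma adjusted p = 0.0694).

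Of the GluN2 genes, Grin2a (chr16:9575709-10002533) encodes the GluN2A subunit of mature forebrain synapses and had the highest score of the family. It reached 0.79, 0.63 and 0.65 in OL libraries 18, 19 and 20, and 0.52, 0.51 and 0.58 in OPC libraries 8, 9 and 10. The groups did not overlap, but OL library 18 stood above the other two OL libraries and the difference did not pass the test (0.69 ± 0.09 in OL, 0.54 ± 0.04 in OPC, SD, n = 3 each, difference 0.15, SE 0.07, limma adjusted p = 0.121). Grin2a was above 0 in both conditions (limma adjusted p = 1.88e-07 in OL and 1.64e-06 in OPC). Its score exceeded 79.5% of all regions in OL and 78.5% in OPC.

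Grin2b (chr6:135727804-136183511), the gene of the early GluN2B subunit, was the member with the largest difference between the conditions and the 1 member called lower in OL. It scored 0.03, −0.20 and −0.13 in OL libraries 18, 19 and 20, against 0.41, 0.36 and 0.38 in OPC libraries 8, 9 and 10. The OL libraries lay on both sides of 0 and all below the OPC libraries, which were all above 0. The mean fell to −0.10 ± 0.12 in OL, against 0.38 ± 0.03 in OPC (SD, n = 3 each, difference −0.48, SE 0.08, limma adjusted p = 0.00219). In OPC the mean was above 0 (limma adjusted p = 4.91e-05). In OL it did not differ from 0 by the test (limma adjusted p = 0.0938), except without OL library 18, where it was below 0 (−0.16, adjusted p = 0.00991), and under either scaling of the libraries. Of the 5610 regions above 0 in all 3 OPC libraries, 278 (4.96%) were, like Grin2b, not above 0 in all 3 OL libraries.

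Grin2a and Grin2b are close paralogs with regions of 427 kb and 456 kb, and they were set against each other within each library, a comparison chosen after their values were seen. Grin2b minus Grin2a was −0.77, −0.83 and −0.77 in OL libraries 18, 19 and 20, and −0.11, −0.15 and −0.20 in OPC libraries 8, 9 and 10. Grin2b was the lower of the pair in every library, and the distance between them was larger in each OL library than in each OPC library. The mean distance was −0.79 ± 0.04 in OL and −0.15 ± 0.04 in OPC, a change of −0.64 (SD, n = 3 each). An exact two-sided permutation test over libraries gave p = 0.1, the smallest that 3 against 3 libraries allow. Grin2a was higher, and Grin2b lower, in all OL libraries than in all OPC libraries. That separation fixed the p-value before the test, so it decides nothing about the pair.

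Grin2c (chr11:115247168-115277243) and Grin2d (chr7:45830482-45876681) encode GluN2C, best known from cerebellar granule cells, and GluN2D, an early subunit that interneurons retain. Grin2c scored −1.43, −1.47 and −1.57 in OL libraries 18, 19 and 20, and −1.61, −1.69 and −1.71 in OPC libraries 8, 9 and 10. Grin2d scored −1.66, −1.90 and −1.86 in the same OL libraries, and −2.14, −2.05 and −1.94 in the same OPC libraries. For both genes every OL library was above every OPC library, by a narrow margin. Neither difference passed the test, with 0.17 for Grin2c (SE 0.08, limma adjusted p = 0.121) and 0.23 for Grin2d (SE 0.10, limma adjusted p = 0.0917). Both genes were below 0 in both conditions.

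The GluN3 subunits bind glycine and lower the calcium permeability of receptors that contain them, and their genes lay far apart in score. Grin3a (chr4:49659610-49855769) scored −0.36, −0.55 and −0.51 in OL libraries 18, 19 and 20, and −0.30, −0.30 and −0.38 in OPC libraries 8, 9 and 10. OL library 18 lay within the range of the OPC libraries, and Grin3a was the 1 member whose groups overlapped. The mean was −0.47 ± 0.10 in OL and −0.32 ± 0.05 in OPC (SD, n = 3 each, difference −0.15, SE 0.08, limma adjusted p = 0.151). The difference passed the test without OL library 18 (−0.20, limma adjusted p = 0.0487), and with all libraries set to the same mean and SD (−0.21, 0.0418) or quantile normalized (−0.18, 0.0477).

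Grin3b (chr10:79960723-79979190) has the narrowest region of the family and showed its largest rise. It scored −1.03, −1.25 and −1.32 in OL libraries 18, 19 and 20, and −1.64, −1.71 and −1.63 in OPC libraries 8, 9 and 10. The highest OPC library was well below the lowest OL library. The mean was −1.20 ± 0.15 in OL and −1.66 ± 0.04 in OPC (SD, n = 3 each), a rise of 0.46 (SE 0.09, limma adjusted p = 0.00632). The score stayed below 0 in all 6 libraries.

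Taking the order of the scores, Grin2a was followed by Grin2b, Grin3a, Grin3b, Grin2c, Grin2d and Grin1 in OL and in OPC. In OL only the last neighbours, Grin2d and Grin1, had overlapping libraries, with a gap of 0.02 between their means. In OPC Grin3b and Grin2c overlapped with a gap of 0.01, and Grin2d and Grin1 overlapped with a gap of 0.17. The other neighbours in the order were apart in every library of the condition.

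In all, 2 of 7 members were called higher in OL (Grin1 and Grin3b), against 23.0% of all regions, and 1 was called lower (Grin2b), against 10.9%. All 3 OL libraries were above all 3 OPC libraries in 5 members, against 33.5% of the regions, and below them in 1 member, against 15.4%. The called counts lie near the shares over all regions. Over all regions the change had a median of 0.10, or of 0.02 once the libraries were scaled to an equal mean and SD, so small rises are to be read against that shift. The regions called higher and lower numbered 4963 and 2345 with the scores as deposited, and 3330 and 3261 under that scaling. Among the members it gave 1 higher (Grin3b) and 2 lower (Grin2b and Grin3a). The SD of scores over regions ran from 1.46 to 1.59 among the libraries. OL library 18 had the highest OL score for all 7 members. Its part in the results beyond the values without it was not tested. In the authors' deposited table no member had an adjusted p under 0.05, the lowest being 0.0981 for Grin2b and 0.12 for Grin3b.

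**Figure D2:**
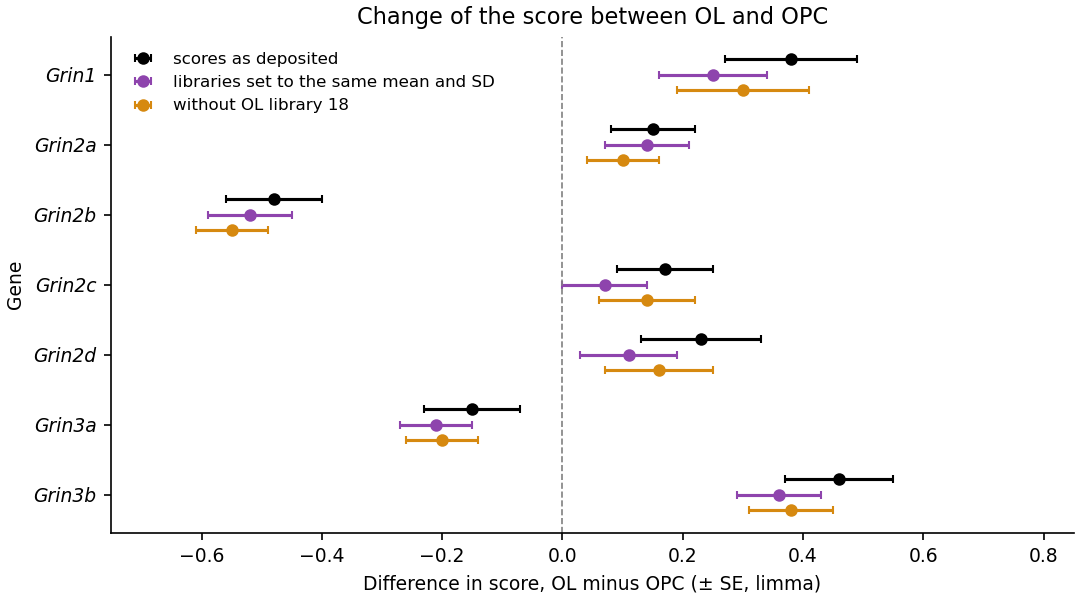
Difference in score, OL minus OPC (horizontal axis, score units, ± SE from limma), for the 7 genes with the scores as deposited (black), with libraries set to the same mean and SD (purple) and without OL library 18 (orange). Grin2b lies between −0.55 and −0.48 and Grin3b between 0.36 and 0.46 in the 3 versions, while Grin1 moves between 0.25 and 0.38.

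The change of a region varied with its level, so each member was set beside the regions whose mean over the 6 libraries lay within 0.25 of its own. Around Grin2b there were 1129 such regions, with a median change of 0.05 and quartiles of −0.15 and 0.25, against −0.48 for Grin2b. Around Grin3b there were 2818, with a median of 0.09 and quartiles of −0.13 and 0.28, against 0.46. Around Grin1 there were 5418, with a median of 0.18 and quartiles of 0.01 and 0.32, against 0.38. The 4 members that were not called lay within the quartiles of the regions at their level. Since a call depends on the size of the change, these positions are a description only.

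The high and low members also differed in a property that the choice of genes did not use, the width of their regions. The regions of Grin3b, Grin2c, Grin1 and Grin2d measured 18.5, 30.1, 40.0 and 46.2 kb, and those of Grin3a, Grin2a and Grin2b 196, 427 and 456 kb. The median over all regions was 26.2 kb, and 4.51% were wider than that of Grin3a. Among 1398 regions wider than 150 kb the median score was −0.18 in OL and −0.17 in OPC, and 45.1% were above 0 in either condition. Among 15939 regions narrower than 50 kb it was −1.53 in OL and −1.66 in OPC, and 25.2% were above 0 in OL and 24.7% in OPC. Grin2a and Grin2b sat above the median of their width class in both conditions, and Grin3a, Grin1 and Grin2d sat below it.

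**Figure D3:**
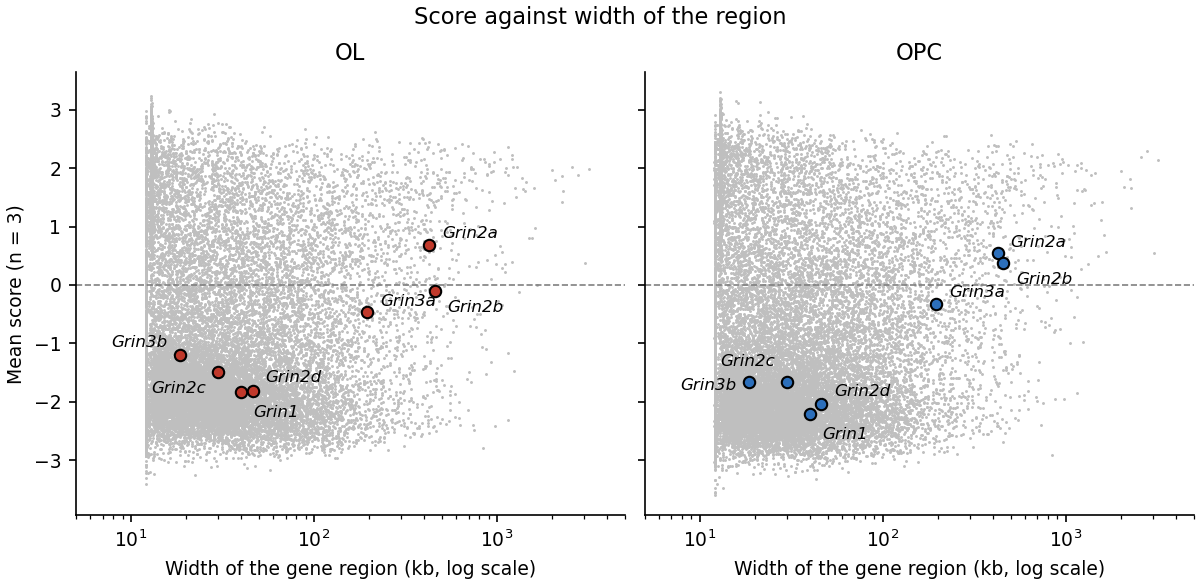
Mean score (vertical axis, score units, n = 3) against the width of the gene region (horizontal axis, kb, log scale) for all regions (grey) and the NMDA receptor subunit genes (coloured), in OL (left) and OPC (right). Grin2a, Grin2b and Grin3a are wide and near or above 0, and the 4 narrow members lie below −1.

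The surroundings of a member were described by the 5 regions before and the 5 after it on the chromosome. Grin2b changed together with its surroundings. Of its 10 neighbours 8 were called lower in OL, against 10.9% of all regions, and 0 higher, against 23.0%, and their median change was −0.47 against −0.48 for Grin2b. The nearest on each side, 343 and 325 kb away, were Emp1, which encodes an epithelial membrane protein (−1.49 in OL, −1.0 in OPC, difference −0.49, limma adjusted p = 0.00501), and Atf7ip, which encodes a partner of the histone methyltransferase SETDB1 (−1.62 in OL, −1.27 in OPC, difference −0.35, adjusted p = 0.0147). The levels of the neighbours ranged widely, between −2.21 and 0.52 in OL and between −2.39 and 0.91 in OPC. Grin2b was above 0 in OPC between these 2 flanking genes that were well below it.

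The regions nearest to Grin2a differed between its sides. The nearest region before it was that of Usp7, a deubiquitinating enzyme gene 827 kb away, at −2.30 in OL and −2.49 in OPC. The nearest after it was Rpl39l, a ribosomal protein paralog 158 kb away, at 1.22 in OL and 1.25 in OPC. Of the 5 regions after Grin2a, only Rpl39l and Atf7ip2 were above 0, and the others were below −1 in both conditions. Of the 10 neighbours 4 were called higher, 1 lower and 5 neither, and their scores ran from −2.34 to 1.22 in OL and from −2.63 to 1.25 in OPC. No other region overlapped that of Grin2a or Grin2b.

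**Figure D4:**
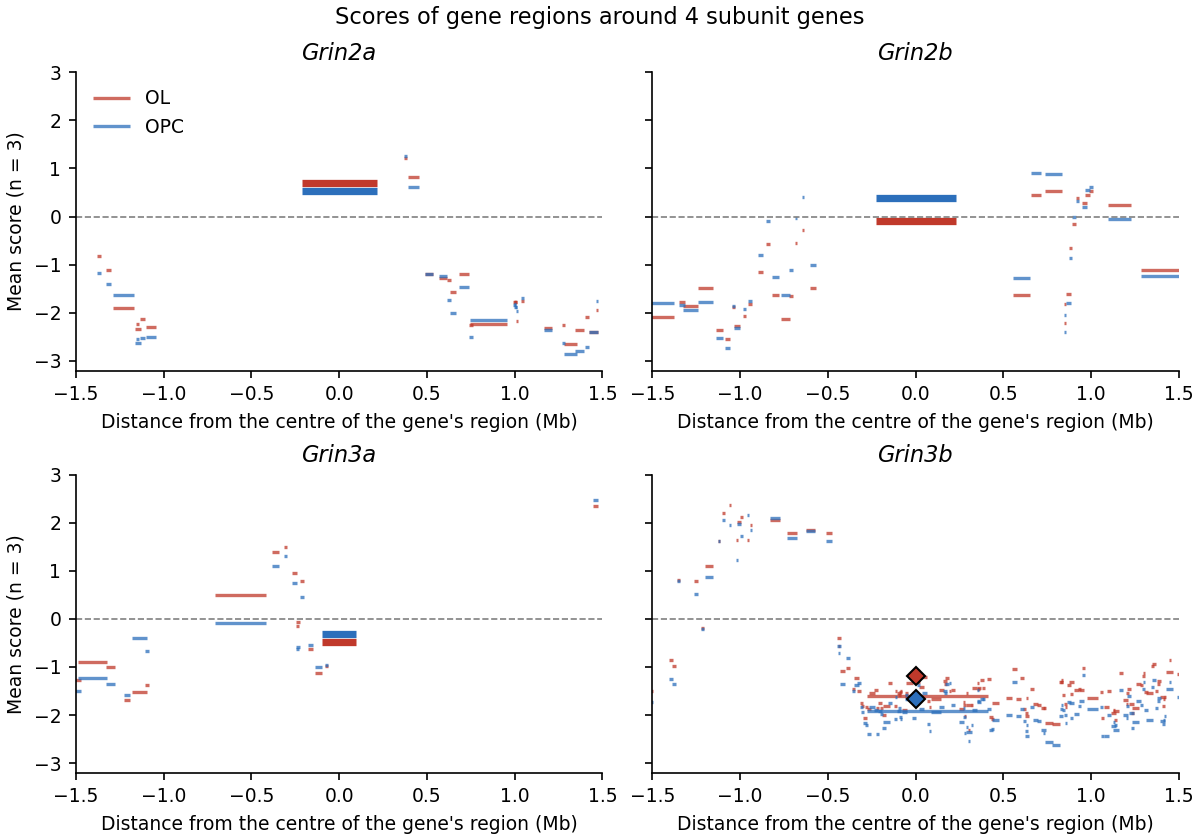
Mean score (vertical axis, score units, n = 3) of gene regions within 1.5 Mb of the centre of Grin2a, Grin2b, Grin3a and Grin3b (horizontal axis, Mb from the centre), OL in red and OPC in blue, with the subunit gene as a thick bar or, for Grin3b, a diamond. Grin2b and 8 of its 10 nearest regions have lower scores in OL, and Grin3b lies in a dense stretch below 0, with a stretch mostly above 0 before it.

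The GluN2 genes have neighbours that are paralogs of each other, a set chosen after the values were seen. Atf7ip2 follows Grin2a at 180 kb and Atf7ip follows Grin2b at 325 kb. Atf7ip2 was at 0.81 in OL and 0.61 in OPC (difference 0.20, limma adjusted p = 0.0523), so it lay near the level of Grin2a, while Atf7ip lay below 0 in both conditions. The epithelial membrane protein genes Emp2, Emp1 and Emp3 lie 277 kb from Grin2a, 343 kb from Grin2b and 39.3 kb from Grin2d. Emp2 scored −1.19 in OL and −1.20 in OPC (difference 0.01, limma adjusted p = 0.958), and Emp3 scored −1.99 in OL and −2.26 in OPC (difference 0.27, adjusted p = 0.137). Of these 5 neighbours only the 2 beside Grin2b, Atf7ip and Emp1, had a called difference.

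Grin3a contained another region, that of the calcineurin subunit gene Ppp3r2, which lies within it and scored −0.98 in OL and −0.96 in OPC (difference −0.03, limma adjusted p = 0.848). A value for Grin3a therefore includes DNA with a score below its own mean. Rnf20, a ubiquitin ligase gene of histone H2B, ended 0.724 kb before it and scored −1.12 in OL and −1.0 in OPC. On the other side the next region outside Grin3a, that of Cylc2, which encodes a protein of the sperm head, lay 1350 kb away at 2.34 in OL and 2.47 in OPC. The nearest regions, Rnf20, Ppp3r2 and Tmem246, had changes of −0.11, −0.03 and −0.08, none of them called, against −0.15 for Grin3a. Of the 10 neighbours 5 were called higher in OL and 0 lower, and these 5 lay 100 to 2570 kb away.

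None of the 40 neighbours of the 4 low members, Grin1, Grin2c, Grin2d and Grin3b, had a mean above 0 in OL or in OPC. The farthest lay 103 kb away, against 952 kb for Grin2a, 618 kb for Grin2b and 2730 kb for Grin3a. Low and high members were thus not compared over equal distances. Within 1.5 Mb most regions were below 0, but some stretches near low members were not. Before Grin3b a stretch of mainly olfactory and vomeronasal receptor genes lay mostly above 0. Its region nearest to Grin3b, Vmn2r83, scored 1.78 in OL and 1.61 in OPC, and Olfr1354 reached 2.36 in OL and 1.96 in OPC. In other stretches above 0, Il1f8 near Grin1 scored 1.93 in OL and 2.3 in OPC, and Mrgpra1 near Grin2d 1.44 and 1.55. For Grin1, 8 of 10 neighbours were called higher in OL, against 23.0% of all regions, and 0 lower, with a median change of 0.37 against 0.38 for Grin1. Its region overlapped 4 others by 2.01 to 11.8 kb, with the largest overlap for the antisense gene Grin1os (−1.81 in OL, −2.17 in OPC, difference 0.37, limma adjusted p = 0.015). Dam marks carry no strand, so Grin1 and Grin1os share that DNA and part of their value. On the other side Man1b1, a mannosidase gene, overlapped by 6.45 kb and scored −2.08 in OL and −2.45 in OPC (difference 0.37, limma adjusted p = 0.0293).

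For Grin3b, 6 of 10 neighbours were called higher in OL and 0 lower, with a median change of 0.33 against 0.46 for Grin3b. It overlapped Wdr18 by 10.5 kb (difference 0.51, limma adjusted p = 0.0051) and Tmem259 by 4.07 kb (difference 0.28, adjusted p = 0.0333), so their values are not independent of its own. It also overlapped Cnn2 and lay within a region of 684 kb with the symbol Bc1. Grin2d had 7 of 10 neighbours called higher and 0 lower (median change 0.34), including Grwd1, which overlapped it by 10.3 kb (difference 0.32, limma adjusted p = 0.0362), but not Kdelr1, which overlapped it by 13.8 kb (difference 0.26, adjusted p = 0.067). Grin2c had 4 of 10 called higher and 1 lower (median change 0.24), and it overlapped Fdxr, a mitochondrial ferredoxin reductase gene, by 11.2 kb (difference 0.14, limma adjusted p = 0.294). On the other side it shared 1.86 kb with Tmem104, which was called higher (difference 0.29, limma adjusted p = 0.0207).

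Among other glutamate receptors are the AMPA receptors, whose channels carry the fast synaptic current. Of their 4 genes, 1 was above 0 and 3 below in OL, and 1 above and 2 below in OPC. The shares over all regions were 25.9% above 0 and 70.9% below in OL, and 25.5% and 71.4% in OPC. For the calls that follow they were 23.0% higher and 10.9% lower. Gria4 was called higher in OL (1.57 ± 0.04 against 1.09 ± 0.01 in OPC, SD, n = 3 each, limma adjusted p = 0.00116) and Gria1 lower (−0.48 ± 0.06 against 0.02 ± 0.01 in OPC, adjusted p = 0.00115). Gria1 and Grin2b thus had falls of like size, −0.51 and −0.48. The lowest AMPA receptor gene was Gria2, at −0.59 in OL and −0.71 in OPC.

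The kainate receptor genes had 2 of 5 members above 0 and 3 below in either condition. Of all regions, 25.9% were above 0 and 70.9% below in OL, and 25.5% and 71.4% in OPC. Grik2 was the highest (1.8 in OL, 1.83 in OPC) and Grik4 the lowest (−2.30 in OL, −2.44 in OPC). Of these genes 2 were called higher, with the larger change in Grik3 (0.33, limma adjusted p = 0.0158), and 1 lower, Grik1 (−0.22, adjusted p = 0.0253). The shares called over all regions were 23.0% higher and 10.9% lower.

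The metabotropic glutamate receptor genes, which encode G protein-coupled receptors, had 5 of 8 members above 0 in OL, against 25.9% of all regions, and 4 in OPC, against 25.5%. Below 0 were 3 in each, against 70.9% of all regions in OL and 71.4% in OPC. Grm8 was the highest (2.10 in OL, 2.03 in OPC) and Grm4 the lowest (−1.46 in OL, −1.81 in OPC). Called higher were 2, against 23.0% of all regions, and called lower 0, against 10.9%. The larger rise was that of Grm5 (0.61 in OL, −0.05 in OPC, difference 0.66, limma adjusted p = 0.000337). The median score was −1.20 in OL and −1.66 in OPC for the 7 NMDA receptor genes and 0.82 in OL and 0.43 in OPC for the metabotropic ones. Over all regions it was −1.47 in OL and −1.54 in OPC. These medians are given without a test.

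**Figure D5:**
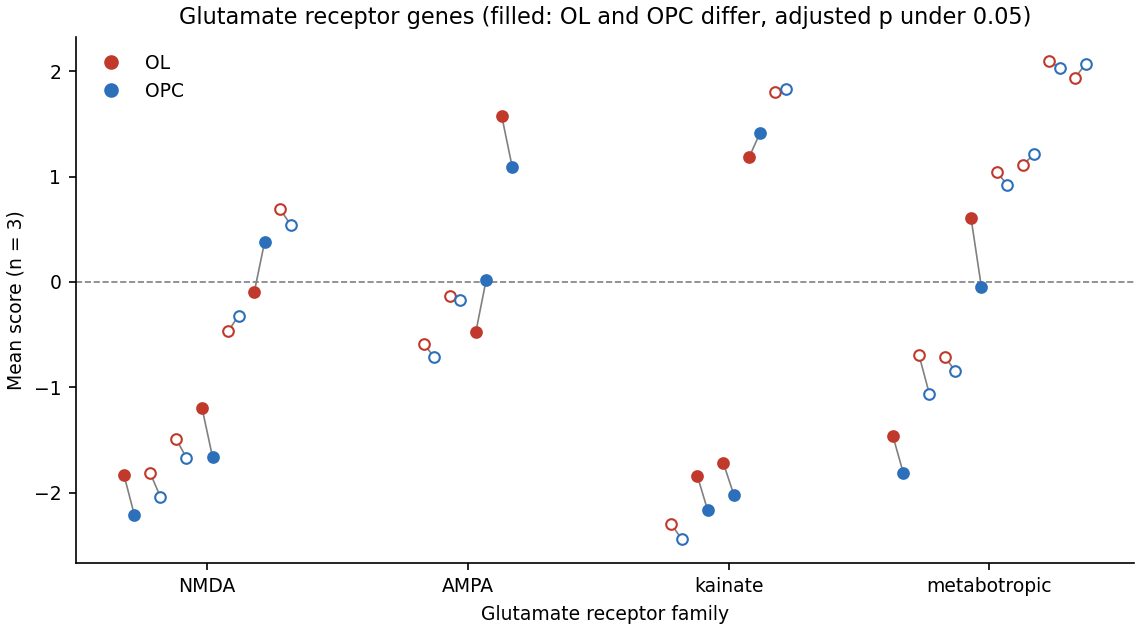
Mean score (vertical axis, score units, n = 3) of NMDA, AMPA, kainate and metabotropic glutamate receptor genes by family, each gene with its OL value (red) left of its OPC value (blue), joined by a line; filled points mark genes called different between OL and OPC (limma, adjusted p under 0.05). Of the 7 NMDA receptor genes 3 are filled, Grin1, Grin3b and Grin2b, and only Grin2b has its means on both sides of 0 in that family.

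Genes that act with the NMDA receptor lay mostly below 0, as did most regions (70.9% below and 25.9% above in OL, 71.4% and 25.5% in OPC). The 26 postsynaptic scaffold genes, which anchor the receptor and link it to signalling, had 27 regions, with 6 above 0 and 21 below in OL and 4 above and 20 below in OPC. Of these regions 8 were called higher in OL and 4 lower, near the shares of 23.0% and 10.9% over all regions. Lin7a was the highest (2.04 in OL, 2.02 in OPC) and Dlg1 the lowest (−2.31 in OL, −2.23 in OPC). The largest rise was that of Neto1, an auxiliary subunit gene (1.16 in OL, 0.61 in OPC, limma adjusted p = 0.000687), and the largest fall that of Dlgap1, a scaffold of the postsynaptic density (−1.38 in OL, −0.76 in OPC, adjusted p = 0.000682).

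Calcium signalling and kinase genes had 1 of 21 members above 0 in OL and 20 below, and 2 above and 19 below in OPC. Over all regions 25.9% were above 0 and 70.9% below in OL, and 25.5% and 71.4% in OPC. Of these genes 3 were called higher, against 23.0% of all regions, and 5 lower, against 10.9%. The highest was the exchange factor gene Rasgrf1, which was also called lower (0.56 in OL, 1.12 in OPC, limma adjusted p = 0.00148), and the lowest was the kinase gene Fyn (−2.69 in OL, −2.80 in OPC). The protein kinase C gene Prkca had the largest fall (−2.37 in OL, −1.69 in OPC, limma adjusted p = 0.001) and the calmodulin gene Calm2 the largest rise (−1.81 in OL, −2.47 in OPC, adjusted p = 0.00177). Genes that supply glutamate and the co-agonists had 3 of 18 members above 0 and 15 below in OL, and 2 above and 16 below in OPC, with 4 called higher and 1 lower, near the shares over all regions. The glutamate transporter gene Slc1a2 had the fall (−2.19 in OL, −1.66 in OPC, limma adjusted p = 0.00164), the vesicular transporter gene Slc17a6 the highest score (0.52 in OL, 0.42 in OPC) and Srr, whose enzyme makes D-serine, the lowest (−2.67 in OL, −2.81 in OPC).

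The table holds no expression values, so the labelled cell types could not be checked against expression of their markers, and the scores of marker genes are given as measured. Of all regions, 25.9% were above 0 and 70.9% below in OL, and 25.5% and 71.4% in OPC. The shares called were 23.0% higher in OL and 10.9% lower. All 5 OPC markers were below 0 in both conditions and all 5 were called higher in OL. All 7 oligodendrocyte markers were below 0 in both conditions, with 1 called higher and 2 lower. Above 0 were 3 of 8 neuron markers in OL and 3 in OPC, 0 of 5 astrocyte markers in OL and 2 in OPC, 1 of 5 microglia markers in either and 2 of 4 endothelial markers in either. Called changes were 2 higher and 0 lower among neuron markers, 0 and 3 among astrocyte markers, 2 and 1 among microglia markers and 0 and 1 among endothelial markers.

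For each member, the protein-coding gene on another chromosome with the most similar 6 scores was found by Euclidean distance. It was Dhx34 for Grin1 (distance 0.134), Fam13a for Grin2a (0.097), Fggy for Grin2b (0.104) and Ache for Grin2c (0.0791). It was Sag for Grin2d (0.0892), Tbce for Grin3a (0.0921) and Ceacam9 for Grin3b (0.103).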

How the data were processed

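The submitters' processing notes list cutadapt 1.9.1, BWA 0.7.17 and mm10. The step from reads to scores was not given in the sources used here. Per the file headers, the deposited scores set each Dam-LMNB1 library against pooled Dam libraries of that condition. The deposited p-value columns give the authors' p and adjusted p, whose test is not stated. Samples were grouped by their titles. limma 3.58.1 (R 4.3.3) was fitted to the 6 libraries over all 21534 regions with a mean for each condition and a trended variance (9.42 total degrees of freedom), without logarithm, pseudocount or filter. OL was tested against OPC and each mean against 0, two-sided, at a Benjamini-Hochberg adjusted p of 0.05. The fit was tested on simulated data. The text names all members and, of each other list, the highest, the lowest and the called genes with the largest rise and fall, and regions overlapping or next to a member. Some genes that this rule selects are not reported here. Members and lists were chosen with earlier results of these data known. Gene types came from a RefSeq table (GRCm38.p6). GATC sites beyond promoter windows and the Dam libraries alone were not analysed here. Python 3.11.15, pandas 2.3.3 and scipy 1.17.1 were used.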

Additional observations from a re-analysis of the deposited data

How the results depend on the processing

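The alternatives were libraries set to the same mean and SD, quantile normalization, no variance trend, a Welch test, only protein-coding genes with 1 region, and leaving out each library. No member's difference changed direction in any of the 11 alternatives, but most of them could not change it. The Welch test, the fit without variance trend and the gene subset leave the difference itself as it is. Leaving out a library cannot reverse it where the groups do not overlap, as in all members but Grin3a. For those members only the scalings could have changed the direction. Of 217 values of single members, 202 kept their side of the threshold. Grin2b and Grin3b kept their calls in 11 of 12 fits and Grin1 in 5. Their calls were lost with the Welch test (adjusted p = 0.0907 for Grin2b, 0.113 for Grin3b and 0.138 for Grin1). With that test 566 regions were higher and 359 lower, against 4963 and 2345 with limma, and 0 members were called in either direction. Its unadjusted p was under 0.05 in 3 members higher and 1 lower. Those counts were the same with limma, but the members higher were not all the same. Members called higher numbered 1 with the same mean and SD and 1 with quantile normalization, and members called lower 2 in each. Without 1 library, 1 to 2 members were higher and 1 to 2 lower, and over all regions 3136 to 4132 were higher and 1673 to 2552 lower, the 3136 without OPC library 9. The cause of these changes was not tested. No paired analysis was possible because the library numbers differ between the conditions. With 3 libraries a group and unknown depth, differences of −0.15 (Grin3a) to 0.23 (Grin2d) did not pass the test.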
